A study of Mus musculus with 19 samples.

Results

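The integrated stress response (ISR) genes described here are 10 listed genes of the ATF4 pathway, taken by name and not by a threshold on their values: Atf4, Atf5, Ddit3, Trib3, Chac1, Asns, Phgdh, Psat1, Sesn2 and Stc2. They are 10 of the 55536 genes of the GENCODE M21 annotation, and all 10 passed the filter on low counts. In the ISR, stress-activated kinases phosphorylate the alpha subunit of the initiation factor eIF2, general translation slows, and the messenger RNA of the transcription factor ATF4 is translated more efficiently through its upstream reading frames. ATF4 then activates genes for amino acid synthesis and transport, redox balance and feedback, and with prolonged stress the factor CHOP, the product of Ddit3. In neural progenitors the serine synthesis branch of this programme is also used during ordinary growth.

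The cells were mouse neural progenitor cells from embryonic cortex, grown on Matrigel with FGF2 and EGF, each at 20 ng/ml. The groups were Mettl14 knockout cells (KO; labelled Mettl14 cKO) and wild-type cells (WT). Mettl14 encodes the RNA-binding partner of the METTL3 methyltransferase that deposits N6-methyladenosine on messenger RNA. The driver of the conditional deletion and the age of the embryos are not given in the sources used here. Ladder-seq separates messenger RNA by length on a gel into 7 bands and sequences each band as its own library, here as 75-bp paired-end reads from 4 KO and 4 WT samples. Standard RNA-seq of WT cells gave 50-bp single-end reads from 3 samples. Nanopore long reads came as native RNA and as direct cDNA, with 2 KO and 2 WT samples for each chemistry, deposited as 1 pooled assembly per genotype and chemistry. The labels do not say whether samples of a group came from separate cultures or embryos, so p-values measure the spread between samples, which may be technical.

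The ladder libraries held 103752444 to 126921887 estimated counts each, and the standard libraries 12084507 to 13987929. In CPM (estimated counts scaled to a common library size), Mettl14 stood at 6.13 to 8.07 CPM in the KO ladder libraries, against 20.2 to 28.4 CPM in the WT ones. Exons 7, 8 and 9 of Mettl14 were in none of the 3 native and 4 cDNA models from the KO assemblies, and were in 1 model of each WT assembly. The neural progenitor markers were all above 0, and the 10 of them summed to 5692 to 6477 CPM in KO, against 7669 to 8176 CPM in WT. Of these 10, Vim and Fabp7 were lower, Nes and Notch1 were higher, and 6 did not pass (edgeR, adjusted over all genes tested). Among all genes tested 53.6% were called, 26.4% higher and 27.2% lower in KO. These shares stand beside all marker counts given here. The 8 markers of the oligodendrocyte lineage, also all above 0, summed to 1693 to 2028 CPM in KO, against 1145 to 1708 CPM in WT, a sum led by Olig1 at 1377 ± 109 CPM in KO and 819 ± 153 CPM in WT (SD, n = 4 each). Olig1 was higher and 4 of the markers were lower, with Pdgfra at 4.56 ± 0.46 CPM in KO and 87.2 ± 15.0 CPM in WT, Sox10 at 0.81 ± 0.09 CPM in KO and 14.1 ± 5.08 CPM in WT, and Mbp and Cspg4 also lower. The 6 astrocyte markers, all above 0, summed to 549 to 624 CPM in KO, against 474 to 771 CPM in WT, with 5 higher (Gja1, S100b, Slc1a2, Aqp4 and Gfap) and Aldh1l1 lower. The 10 neuron markers, all above 0, summed to 229 to 317 CPM in KO, against 243 to 353 CPM in WT, with 2 higher and 4 lower. The 6 markers of meningeal fibroblasts, all above 0 in both genotypes, summed to 5.55 to 6.62 CPM in KO, against 0.544 to 0.757 CPM in WT. The 7 endothelial and mural markers summed to 7.06 to 7.87 CPM in KO, against 4.46 to 5.84 CPM in WT, with Cdh5 at 0 in all WT ladder libraries. The Y-linked gene Ddx3y had 3.33 to 4.31 CPM in the KO ladder libraries, against 0 to 0.0247 CPM in WT, whereas the long-read assemblies listed it at 4.64 TPM (a length-corrected abundance) in KO, against 15.2 TPM in WT, in native RNA. Of 5 sex-linked genes, 4 were higher in the KO ladder libraries and Xist was lower. Xist was still present in KO, at 39.2 to 62.0 CPM, against 121 to 183 CPM in WT. In direct cDNA it had 5.18 TPM in KO, against 1.94 TPM in WT. The part of cell composition and of embryo sex in the values below was not tested. In bulk samples, fewer cells of a type and less RNA per cell cannot be told apart.

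ATF4 and its partners bind a composite element, the C/EBP-ATF response element, whose core was searched here as TGATGNAA on both strands. Promoter windows of 250 bases before to 50 bases after each gene's start were matched by symbol for all 10 genes (RefSeq, GRCm38.p6). The core lay in the windows of 3 of them, Asns, Chac1 and Trib3, and in 3.97% of all 32851 windows. The latter is a share of windows and not of genes, and Atf5 and Psat1 each had more than a single window. The other 7 genes had no match to these letters in their windows. The elements are shown because the 3 genes that carry them differ in their values below. Each line gives 30 bases on the gene's strand, 5′ to 3′, with the core in capitals.
Asns, chr6:7693214-7693243, minus strand: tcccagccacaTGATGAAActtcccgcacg
Chac1, chr2:119351038-119351067, plus strand: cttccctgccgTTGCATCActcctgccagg
Trib3, chr2:152344028-152344057, minus strand: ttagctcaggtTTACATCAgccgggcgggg

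In Asns the core began 23 bases before the RefSeq start, in Chac1 193 bases before it, and in Trib3 at base 15 after it. These places depend on the annotation. By the GENCODE M21 starts, the Asns core lies after the start of Asns-201 (7693254). The Trib3 core lies before the start of Trib3-201 (152344032), and the Chac1 core stays before the start. Chac1 and Trib3 carry the core in reverse orientation. The 250 bases before the Chac1 start are shown whole, because Chac1 had the largest rise of the 10 genes in the KO ladder libraries.
Chac1, chr2:119350992-119351241, plus strand: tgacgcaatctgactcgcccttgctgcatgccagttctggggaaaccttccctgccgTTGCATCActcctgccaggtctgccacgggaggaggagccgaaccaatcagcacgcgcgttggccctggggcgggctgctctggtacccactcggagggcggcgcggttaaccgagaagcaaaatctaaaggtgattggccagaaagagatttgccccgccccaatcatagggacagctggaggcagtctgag

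The pathway is known for upstream reading frames. Here only ATG triplets in annotated leaders were counted, and whether they open a reading frame was not tested. An ATG lay upstream of the annotated coding sequence in 7 of the 10 leading transcripts, against 52.9% of the 18474 genes with an annotated leader. Atf4-201 had 3 such ATGs in a leader of 594 nt, Atf5-201 had 2 in 373 nt and Ddit3-201 had 2 in 186 nt. Chac1-201, Phgdh-201 and Trib3-201 had 0. The letters GGACT, the most common core of the N6-methyladenosine motif, occurred in all 10 leading transcripts, against 89.1% of all 19266 compared. Their density ran from 0.528 per kb in Phgdh-201 to 2.59 per kb in Sesn2-201, where 9 copies stood in 3475 nt, against a median of 1.03 per kb over all leading transcripts.

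The order of levels per length was read from the deposited TPM of the 4 WT ladder libraries. Phgdh averaged 117 ± 8.57 TPM (SD, n = 4), above every other gene of the set in every library. Psat1 followed with 70.3 ± 6.64 TPM, Atf4 with 70.02 ± 9.05 TPM and Ddit3 with 61.7 ± 7.41 TPM, and neighbours among these 3 overlapped between libraries. Atf5 at 30.6 ± 3.80 TPM, Sesn2 at 22.2 ± 5.85 TPM and Asns at 19.7 ± 1.97 TPM came next, again with overlapping neighbours. Stc2 at 3.46 ± 0.43 TPM, Chac1 at 2.15 ± 0.24 TPM and Trib3 at 1.24 ± 0.23 TPM were lowest and did not overlap their neighbours. In the KO libraries the first 7 kept this order, and Stc2 was last at 1.37 ± 0.13 TPM, below Chac1 at 4.09 ± 0.73 TPM and Trib3 at 1.67 ± 0.29 TPM.

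The first comparison asks how the ISR genes differ between KO and WT ladder libraries. The 10 genes did not move together. Chac1, Phgdh and Psat1 were higher in KO, Stc2, Ddit3 and Atf4 were lower, and Asns, Atf5, Sesn2 and Trib3 did not pass the test (edgeR quasi-likelihood test, Benjamini-Hochberg adjusted p under 0.05 over all 18687 genes tested). This makes 6 of 10 called, against 53.6% of all genes tested. The 3 higher stand against 26.4% of all genes called higher, and the 3 lower against 27.2% called lower. The median log2 difference, KO over WT, was -0.13 over the 10 genes and -0.03 over all genes tested. KO and WT libraries did not overlap for 7 of the 10, against 49% of all genes tested.

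**Figure D1:**
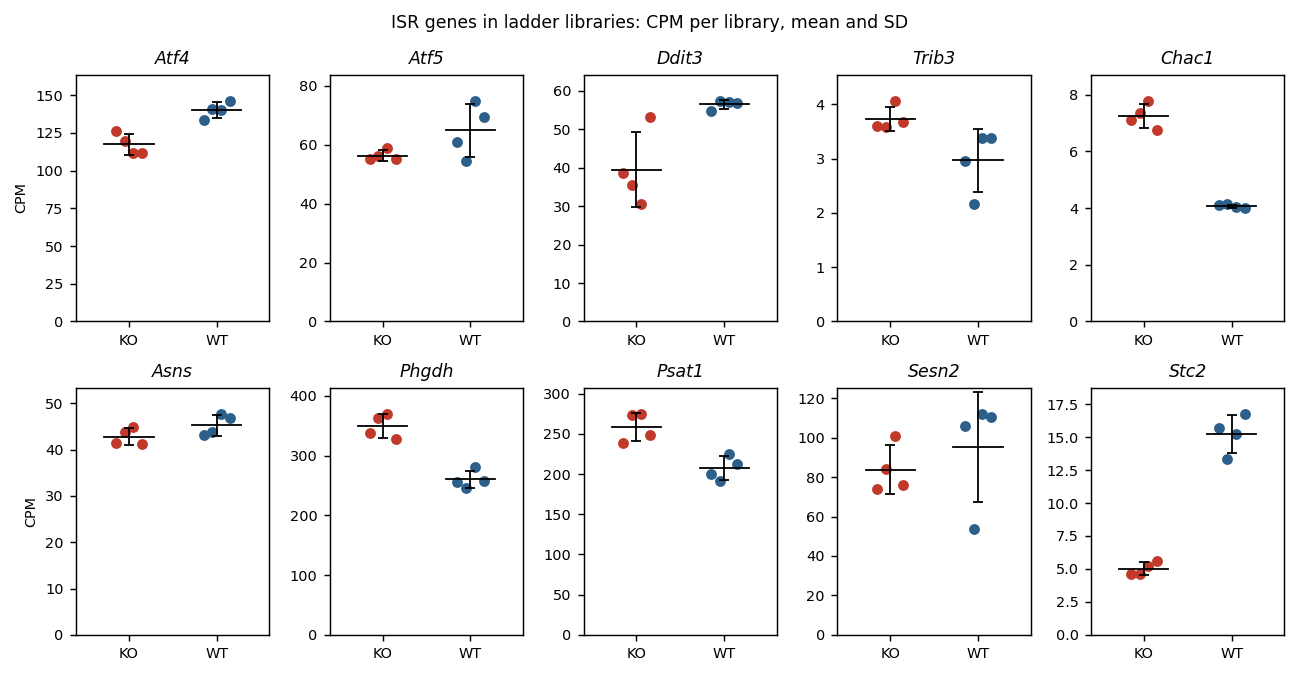
CPM of each of the 10 genes in the 4 KO and 4 WT ladder libraries, with the mean (bar) and SD (whiskers); each panel has its own axis from 0. Chac1, Phgdh and Psat1 sit higher in every KO library than in any WT library, Stc2 sits lower, and 1 KO library of Ddit3 lies near the WT libraries.

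Among the transcription factors, Atf4 had 126, 119, 112 and 112 CPM in the KO ladder libraries, against 134, 141, 140.2 and 146 CPM in the WT ones. Every KO library was below every WT library, by a small margin. The log2 difference was -0.26 (SE 0.09), which is 1.19-fold lower in KO, with an adjusted p of 0.038 by edgeR. That call was lost in 12 of the 15 alternative settings, where the adjusted p by edgeR, DESeq2 or limma ran from 0.019 to 0.44.

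Ddit3, which encodes the pro-apoptotic factor CHOP, had 38.6, 35.5, 30.5 and 53.2 CPM in KO, against 54.7, 57.4, 57.1 and 56.8 CPM in WT. The WT libraries were close together, and KO replicate 4 lay just under them while the other KO libraries were clearly lower. The log2 difference was -0.52 (SE 0.15; 1.43-fold lower in KO; adjusted p 0.013 by edgeR), and it passed the threshold in all 15 alternatives. Atf5, a factor related to ATF4 that acts in the mitochondrial stress response, averaged 56.3 ± 1.84 CPM in KO and 64.9 ± 9.07 CPM in WT (SD, n = 4 each), with overlapping libraries and an adjusted p of 0.15 by edgeR. Without WT replicate 2 it passed as lower, at an adjusted p of 0.038 and a log2 difference of -0.28.

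Chac1 and Trib3 act in redox balance and feedback. Chac1 encodes an enzyme that degrades glutathione, and it had 7.12, 7.35, 7.77 and 6.75 CPM in KO, against 4.09, 4.13, 4.03 and 4.01 CPM in WT. The WT libraries ran only from 4.01 to 4.13 CPM (SD 0.0564 CPM), and the KO libraries were all well above them. Its log2 difference was 0.83 (SE 0.10), 1.78-fold higher in KO, with an adjusted p of 2.3e-05 by edgeR. Trib3 encodes a pseudokinase that binds ATF4 and restrains it. It had 3.59, 3.59, 4.06 and 3.67 CPM in KO, against 2.95, 2.16, 3.37 and 3.39 CPM in WT. The KO libraries were all above the WT ones, but the difference of 0.33 (log2; SE 0.15) had an adjusted p of 0.078 by edgeR and was not called in any of the 15 alternatives.

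The amino acid genes split. Phgdh, the first enzyme of serine synthesis, had 339, 362, 369 and 328 CPM in KO, against 256, 246, 281 and 258 CPM in WT. Psat1, the next enzyme of that pathway, had 239, 273, 274 and 248 CPM in KO, against 200.03, 191, 225 and 212 CPM in WT. Both were higher in every KO library than in any WT library. The log2 differences were 0.43 (SE 0.10) for Phgdh and 0.32 (SE 0.10) for Psat1, with adjusted p of 0.0042 and 0.022 by edgeR. The Psat1 call was lost when 1 library was left out in 4 cases: KO 2 (adjusted p 0.068), KO 3 (0.056), WT 1 (0.067) and WT 4 (0.060). Asns, which makes asparagine and is among the best-known ATF4 targets, averaged 42.8 ± 1.78 CPM in KO and 45.3 ± 2.24 CPM in WT (SD, n = 4 each). Its log2 difference of -0.08 had a 95% interval from -0.26 to 0.10 and an adjusted p of 0.48 by edgeR.

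Stc2, a secreted glycoprotein hormone induced by ER stress, showed the largest difference of the set. It had 4.59, 4.62, 5.21 and 5.59 CPM in KO, against 15.7, 13.3, 15.3 and 16.7 CPM in WT. The groups were far apart. The log2 difference was -1.61 (SE 0.11), 3.05-fold lower in KO, with an adjusted p of 4.8e-07 by edgeR. Sesn2, a leucine sensor that restrains mTORC1, had 74.2, 84.1, 101 and 76.3 CPM in KO, against 106, 53.8, 112 and 110.4 CPM in WT. WT replicate 2 lay below all KO libraries, and the other WT libraries lay above them. With all libraries the log2 difference was -0.19 (SE 0.21; adjusted p 0.47 by edgeR). Without WT replicate 2 it was -0.38 with an adjusted p of 0.021.

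Reads of some of these genes could be shared with neighbours or copies, since the sources used here do not state that the libraries kept strand. Atf5 overlaps Nup62 by 571 bp and Il4i1 by 272 bp on the opposite strand. Ddit3 overlaps Mars by 68 bp on the opposite strand. It also overlaps, by 2925 bp on the same strand, a second annotated gene of the same name, whose transcript was listed at 0 in every short-read library that held it. Psat1 overlaps the pseudogene Gm3329 by 556 bp on the opposite strand, Sesn2 overlaps Gm12981 by 6089 bp on the same strand, and Phgdh has a processed copy, Phgdh-ps1.

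At the level of transcripts, the set has 37 annotated transcripts in the ladder files, of which 20 passed the filter. Of these 9 were called, against 35.2% of all transcripts tested, 4 higher and 5 lower in KO, against 17.3% higher and 17.9% lower among all 48272 transcripts tested (edgeR quasi-likelihood test). One transcript carried nearly all of the sum for most genes. Chac1 and Sesn2 have a single annotated transcript, and Asns-201, Atf4-201, Phgdh-201 and Trib3-201 each averaged at least 97.6% of their gene in both genotypes. Stc2-201 averaged 92.1% in KO and 90.3% in WT, and Ddit3-201 averaged 94.0% in KO and 95.4% in WT. Of these leading transcripts, Chac1-201 and Phgdh-201 were called higher and Stc2-201 lower. Ddit3-201 (log2 -0.46, adjusted p 0.068 by edgeR) and Atf4-201 (log2 -0.17, adjusted p 0.16) did not pass, unlike their gene sums. The transcript fit was scaled on its own, so its values are shifted from those of the gene sums. Chac1 and Sesn2, with the same counts in both fits, had log2 differences of 0.91 and -0.11 here, against 0.83 and -0.19 as gene sums. The part of this scaling in the results of Ddit3-201 and Atf4-201 was not tested. Ddit3-201 changed its call in 1 of 11 alternatives, and Atf4-201 in none. The other lower calls were minor transcripts of Asns, Atf4, Ddit3 and Stc2.

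Atf5 and Psat1 were the genes with a second transcript of 10% or more. Atf5-202 starts at position 44815658 of chromosome 7 (GRCm38), inside the gene, and Atf5-201 starts at 44816658. The Atf5-202 share was 15.8%, 14.4%, 11.0% and 12.7% in KO, against 7.29%, 10.7%, 6.39% and 6.47% in WT. The groups did not overlap, and the mean difference was 5.81 percentage points, with an exact two-sided permutation p of 0.029, the smallest that 4 against 4 samples can give, and 0.095 after Benjamini-Hochberg adjustment over the 10 shares compared. In the transcript fit Atf5-202 was higher in KO (log2 0.71, SE 0.15, adjusted p 0.0064 by edgeR), and Atf5-201 did not pass (log2 -0.23, adjusted p 0.23).

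Psat1-201 runs from 15925059 to 15904678 on chromosome 19, and Psat1-205 from 15924622 to 15905127, so they differ at both ends. The Psat1-205 share was 55.0%, 47.6%, 51.6% and 51.0% in KO, against 37.0%, 41.9%, 45.0% and 48.9% in WT. The highest WT library lay above the lowest KO library. The mean difference of 8.09 percentage points had an exact permutation p of 0.057, adjusted 0.11. Psat1-205 was higher in KO (log2 0.63, SE 0.14, adjusted p 0.0097 by edgeR), and Psat1-201 did not pass (log2 0.18, adjusted p 0.28). Relative to the gene total, none of the 6 genes with at least a pair of tested transcripts changed transcript usage (0 of 6 by edgeR's diffSpliceDGE with Simes' method; 1, Atf4, at an unadjusted p of 0.029), against 19.6% of all 10532 genes tested. Leaving out KO replicate 1 or KO replicate 3 gave 1 call, Stc2, at adjusted p of 0.021 and 0.017.

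**Figure D2:**
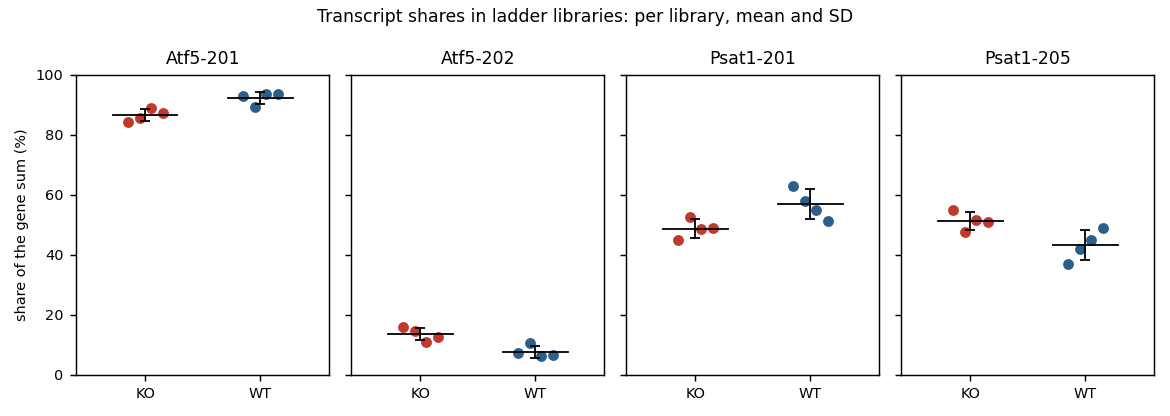
Share of the gene's estimated counts (%) held by each transcript in the 4 KO and 4 WT ladder libraries, with mean and SD, for the genes with a second transcript of 10% or more. Atf5-202 is higher in every KO library than in any WT library, and Psat1-205 overlaps.

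The rest of the pathway was read from 9 lists of 116 genes, all of which passed the filter. In all, 36 of 116 were higher and 29 lower in KO, against 26.4% and 27.2% of all genes. Of 9 eIF2alpha kinase and phosphatase genes, 1 was higher and 1 lower, and none of the 4 kinases Eif2ak1, Eif2ak2, Eif2ak3 and Eif2ak4 passed. Ppp1r15b, the constitutive targeting subunit of the eIF2alpha phosphatase, averaged 72.4 ± 4.44 CPM in KO and 52.5 ± 7.53 CPM in WT (SD, n = 4 each; log2 0.47, adjusted p 0.0058 by edgeR). Ppp1ca, a catalytic subunit of protein phosphatase 1, was lower (log2 -0.37, adjusted p 0.020), a call lost in 6 of 15 alternatives. Of 8 eIF2 and eIF2B genes, 1 was higher and 4 lower. Eif2b5, the catalytic subunit of the exchange factor eIF2B, was higher (log2 0.52, adjusted p 0.00095 by edgeR), and the regulatory subunits Eif2b2 and Eif2b4 were lower (log2 -0.63 and -0.57). Of the other eIF2B subunits, Eif2b3 was also lower (log2 -0.54) and Eif2b1 did not pass (log2 0.01).

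Of 9 partners of ATF4 in the bZIP family, 5 were higher and 2 lower in KO, with a median log2 difference of 0.85. Maf averaged 48.6 ± 4.59 CPM in KO and 16.9 ± 3.13 CPM in WT (log2 1.52), and Cebpb averaged 41.6 ± 2.57 CPM in KO and 16.5 ± 0.76 CPM in WT (log2 1.34; SD, n = 4 each). Batf3 was lower (log2 -0.82). In each of the 15 alternatives 5 genes of this list were called higher, with medians from 0.30 to 0.92.

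The metabolic lists moved in both directions. Of 12 serine, one-carbon and amino acid synthesis genes, 5 were higher and 6 lower. Cth and Cbs, the enzymes that make cysteine from homocysteine, rose with log2 differences of 1.69 and 0.97. Aldh1l2, a mitochondrial folate enzyme, fell to 23.2 ± 2.66 CPM in KO, against 69.2 ± 12.2 CPM in WT (log2 -1.58), and Aldh18a1 of proline synthesis fell with a log2 difference of -0.53, with overlapping libraries. Of 11 amino acid transporters, 4 were higher and 1 lower. Slc7a5, the large neutral amino acid carrier, averaged 346 ± 53.1 CPM in KO and 151 ± 38.4 CPM in WT (log2 1.19), Slc1a5 was higher (log2 0.68), and the cystine carrier Slc7a11 averaged 33.1 ± 0.80 CPM in KO and 74.9 ± 17.7 CPM in WT (log2 -1.18). Of 22 genes for tRNA synthetases and the tRNA exporter Xpot, 5 were higher and 1 lower. Fars2 and Tars were higher (log2 0.61 and 0.41) and Sars was lower (log2 -0.37), and these calls were lost in 1, 7 and 3 of 15 alternatives.

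The other targets of ATF4 and CHOP held the largest falls. Of 19 genes, 4 were higher and 10 lower in KO, with a median log2 difference of -0.42, and the median stayed between -0.46 and -0.22 across the alternatives. Ero1l, the ER oxidase induced by CHOP, averaged 19.8 ± 1.32 CPM in KO and 96.6 ± 10.7 CPM in WT (log2 -2.29, adjusted p 4.3e-08 by edgeR). Pmaip1, which encodes the pro-apoptotic protein NOXA, averaged 1.38 ± 0.40 CPM in KO and 5.53 ± 0.73 CPM in WT (log2 -2.01). Gadd45a was higher (log2 0.75), and Map1lc3b was called higher (log2 0.27) but lost the call in 12 of 15 alternatives. The highest value of the lists was that of Fgf21 (log2 2.85), named after its value was seen, at only 0.181 ± 0.018 CPM in KO and 0.024 ± 0.014 CPM in WT.

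The neighbouring stress programmes differed in part. Of 17 ER chaperone, IRE1 and ATF6 genes, 6 were higher and 4 lower. Pdia4 and Edem1 were higher (log2 1.33 and 0.59), and the chaperones Hsp90b1 and Calr were lower (log2 -0.73 and -0.67). Of 9 genes of the mitochondrial unfolded protein response, 5 were higher and 0 lower, with a median log2 difference of 0.42. The chaperonin Hspd1 averaged 584 ± 73.3 CPM in KO and 301 ± 29.5 CPM in WT (log2 0.96), and the protease Oma1 averaged 12.9 ± 2.30 CPM in KO and 7.00 ± 0.21 CPM in WT (log2 0.89). Across the 15 alternatives that list had 4 to 6 higher genes and 0 lower. Some markers of neural progenitors, the oligodendrocyte lineage, astrocytes, neurons and fibroblasts differed between the same groups, as many genes did. They went in both directions within all but the fibroblast list, and their part in these lists was not tested.

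**Figure D3:**
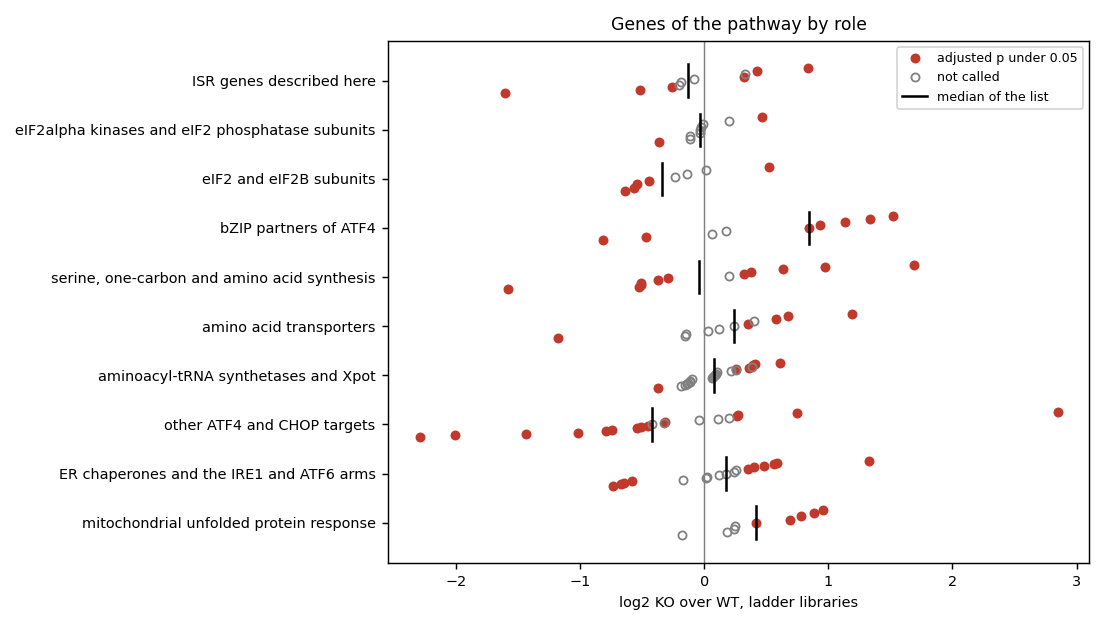
Log2 difference, KO over WT, of every gene of the pathway lists in the ladder libraries, 1 row per list; filled points passed an adjusted p of 0.05 (edgeR), open points did not, and the bar is the list's median. The 10 genes described here spread to both sides of 0, the other ATF4 and CHOP targets have 10 of 19 genes called lower, and the mitochondrial list has none called lower.

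Across the 8 ladder libraries, the 5 genes whose log2 CPM, centred on each gene's mean, lay nearest to that of Atf4 were Chmp5, Atg3, Sbds, Idh3b and Slc22a15, among the 11865 genes whose average log2 CPM reached 1. Their root mean square differences from Atf4 were 0.018, 0.033, 0.036, 0.036 and 0.040. Their log2 differences, KO over WT, ran from -0.29 for Slc22a15 to -0.23 for Sbds, close to that of Atf4 because they were chosen for likeness over the same libraries. Of the other ISR genes Asns came nearest, at rank 506 and a difference of 0.12, followed by Atf5 at rank 938. Stc2 was farthest, at rank 10491 and a difference of 0.65.

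The second comparison sets WT ladder libraries against WT standard libraries, over the 105882 annotated transcripts that all short-read files share. Ddit3 and Atf5 were far higher in the ladder libraries, Phgdh and Atf4 moderately higher, and Asns and Psat1 lower. Chac1, Sesn2, Stc2 and Trib3 did not pass. Thus 6 of 10 were called, against 60.9% of 16131 genes tested by edgeR, with 30.5% of all genes higher and 30.4% lower. The libraries did not overlap for 6 of the 10, against 61.9% of all genes tested. Library type, read length and layout, instrument and transcript set changed together here and cannot be told apart. Standard replicate 2 was also quantified against 107368 transcripts, and standard replicates 1 and 3 against 116067.

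Ddit3 had 66.5, 70.1, 69.2 and 68.6 CPM in the ladder libraries, against 6.28, 5.48 and 5.19 CPM in the standard ones. The gap was many times the spread within either type. The log2 difference, ladder over standard, was 3.60 (SE 0.13), 12.2-fold, with an adjusted p of 1.0e-06 by edgeR. Atf5 had 74.1, 66.4, 90.7 and 83.9 CPM in the ladder libraries, against 16.6, 24.4 and 25.1 CPM in the standard ones (log2 1.84, SE 0.19, adjusted p 9.1e-05). Phgdh averaged 316 ± 17.1 CPM in ladder (n = 4) and 172 ± 7.73 CPM in standard libraries (SD, n = 3; log2 0.88). Atf4 averaged 166 ± 5.39 CPM in ladder and 128 ± 14.1 CPM in standard libraries (log2 0.38, adjusted p 0.022), a call lost in 5 of 12 alternatives.

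Psat1 averaged 251 ± 17.0 CPM in ladder and 338 ± 25.7 CPM in standard libraries (log2 -0.43, adjusted p 0.011 by edgeR), and Asns averaged 55.0 ± 2.54 CPM in ladder and 81.9 ± 18.7 CPM in standard libraries (log2 -0.58, adjusted p 0.016). The Psat1 call was lost in 3 of 12 alternatives, namely without standard replicate 2 (adjusted p 0.052), with the replicate block (0.055) and without a filter (0.084). The Asns call was lost in 2, without standard replicate 2 (0.073) and without standard replicate 3 (0.059). The standard libraries were uneven for several stress targets. Chac1 had 1.64, 7.08 and 4.65 CPM in standard replicates 1, 2 and 3, while its ladder libraries lay between 4.85 and 5.05 CPM. Standard replicate 1 was also the lowest of the 3 for Asns (61.0 CPM), Atf5, Stc2 (14.0 CPM) and Trib3 (1.23 CPM), and was the highest for Sesn2 (107 CPM). Without that library Stc2 was called lower in ladder libraries (log2 -0.55, adjusted p 0.0062) and Sesn2 higher (log2 0.87, adjusted p 0.030).

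On the scale of the deposited TPM, the median of all genes moved by -1.60 (log2, ladder over standard), and 8.08% of the called genes were higher in ladder libraries, against 50.2% with counts. Relative to that shift, the 10 genes kept the direction they had with counts, from 3.57 for Ddit3 and 1.59 for Atf5 to -0.51 for Psat1 and -0.56 for Asns.

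**Figure D4:**
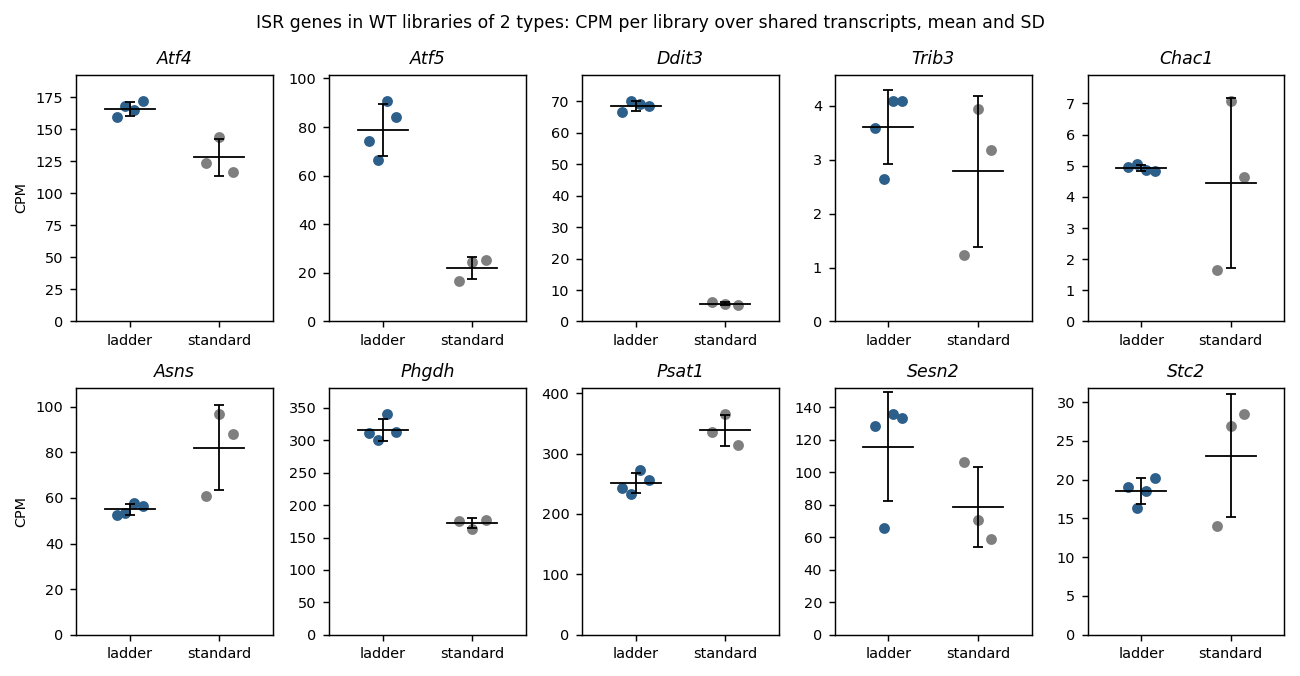
CPM of the 10 genes over shared transcripts in the 4 ladder and 3 standard WT libraries, with mean (bar) and SD (whiskers); each panel has its own axis from 0. Ddit3 and Atf5 separate the library types, and the standard libraries of Chac1, Trib3 and Stc2 spread widely.

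The third set of values is that of the nanopore assemblies, each 1 pooled assembly per genotype and chemistry, so there was no replicate error and no test. Here nearly the whole set was lower in KO. In native RNA 8 of the 10 genes, counting Trib3, which was listed at 0 in KO, were at least 2-fold lower in KO, against 21.4% of the 11218 genes compared, and none was 2-fold higher (14.4% of all genes). In direct cDNA 7 of 10 were at least 2-fold lower, against 17.5% of 12560 genes, and 1 was higher, against 21.7%. The median log2 difference was -2.09 in native RNA and -1.86 in cDNA, against -0.09 and 0.18 over all genes compared. These are differences of log2(TPM plus a pseudocount of 1 in native RNA or 0.1 in cDNA), which understate the change of low genes, and the depth of the long-read libraries is unknown from the assemblies.

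Asns had 103 TPM in KO, against 612 TPM in WT, in native RNA, and 10.1 TPM in KO, against 33.3 TPM in WT, in cDNA. Atf5 had 8.43 TPM in KO, against 175 TPM in WT, in native RNA, and 1.42 TPM in KO, against 12.4 TPM in WT, in cDNA. Chac1, which was higher in the KO ladder libraries, had 5.82 TPM in KO, against 60.7 TPM in WT, in native RNA, and 1.28 TPM in KO, against 5.48 TPM in WT, in cDNA. These 3 genes were lower in KO in both chemistries.

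Ddit3 had 6.72 TPM in KO, against 62.5 TPM in WT, in native RNA, and 1.07 TPM in KO, against 4.91 TPM in WT, in cDNA. Sesn2 had 16.8 TPM in KO, against 53.8 TPM in WT, in native RNA, and 1.17 TPM in KO, against 5.95 TPM in WT, in cDNA. Trib3 was listed at 0 in KO by its introns, against 37.8 TPM in WT, in native RNA, and had 0.332 TPM in KO, against 2.04 TPM in WT, in cDNA. The native KO assembly also held an unspliced model of 4.43 TPM at the Trib3 3′ end.

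The serine genes differed less. Phgdh had 305 TPM in KO, against 747 TPM in WT, in native RNA, and 27.0 TPM in KO, against 46.2 TPM in WT, in cDNA. Psat1 had 410.2 TPM in KO, against 556 TPM in WT, in native RNA, and 31.8 TPM in KO, against 34.5 TPM in WT, in cDNA. Both were called higher in KO in the ladder libraries. Stc2, the gene with the largest ladder difference, had 5.29 TPM in KO and 5.44 TPM in WT in native RNA, and 0.401 TPM in KO and 1.27 TPM in WT in cDNA.

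Atf4 had 146 TPM in KO, against 389 TPM in WT, in native RNA. In cDNA it had 17.7 TPM in KO, against 3.86 TPM in WT, the opposite direction. The WT cDNA models of Atf4 were 3759, 32176 and 34101 nt long and reached from 80173395 to 80259369 on chromosome 15, far beyond the annotated gene (80255184 to 80257541), whereas the leading KO cDNA model had 1416 nt. The exon from 80256207 to 80256521 alone was taken as an alternative, chosen after seeing the data. Its coverage, scaled by each model's ratio of TPM to coverage, was 14.4 in KO, against 24.6 in WT, in cDNA (log2 -0.77). This scaled coverage is not on the same scale as the gene sums of TPM.

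**Figure D5:**
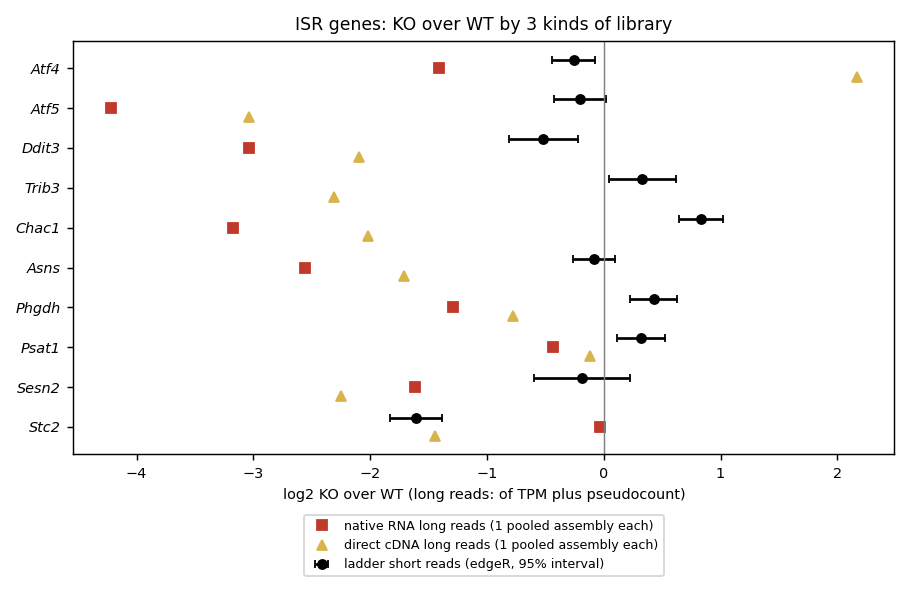
Log2 difference, KO over WT, of the 10 genes in ladder libraries (circles, edgeR estimate with 95% interval, 4 against 4 libraries) and in native RNA (squares) and direct cDNA (triangles) assemblies, 1 pooled assembly per genotype, without replicate error; Trib3 has no native point because it was listed at 0 in KO. Most long-read points lie well left of the ladder intervals, and Chac1, Phgdh and Psat1 lie on opposite sides of 0.

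The other pathway lists differed in the long reads too. Over all genes compared, 21.4% were at least 2-fold lower and 14.4% at least 2-fold higher in native RNA. In cDNA these shares were 17.5% and 21.7%. Of 17 other ATF4 and CHOP targets measured in native RNA 10 were at least 2-fold lower in KO, and of 19 measured in cDNA 7 were. Of 12 serine, one-carbon and amino acid synthesis genes 6 were 2-fold lower in native RNA and 8 in cDNA, with Pycr1 at 3.91 TPM in KO, against 48.1 TPM in WT, in native RNA. Of 9 transporters measured in native RNA 5 were 2-fold lower and none higher, and of 22 tRNA synthetase genes 7 were lower and none higher. In cDNA 5 of 10 transporters were lower and none higher, and 6 of 22 tRNA synthetase genes were lower and 1 higher. The ER chaperone list did not share this, with 1 of 16 lower and 3 higher in native RNA, and 1 of 17 lower and 2 higher in cDNA. Nor did the mitochondrial list, with 0 of 9 lower and 2 higher in native RNA. In cDNA 1 of the 9 was lower, Hspa9, and 2 were higher. Of 9 eIF2alpha kinase and phosphatase genes, 1 was lower in native RNA and 2 in cDNA, with none higher. Of 8 eIF2 and eIF2B genes, 1 was lower and none higher in native RNA, and 0 were lower and 3 higher in cDNA. Of 4 bZIP partners measured in each chemistry, 1 was lower and 2 were higher. Ppp1r15b, Slc7a5 and Psph had a direction in native RNA that can be set beside the ladder value. Ppp1r15b, higher in KO in the ladder libraries, had 4.86 TPM in KO, against 36.1 TPM in WT. Slc7a5, higher in KO in the ladder libraries, had 112 TPM in KO, against 230.3 TPM in WT, and Psph, lower in KO in the ladder libraries (log2 -0.29), had 52.8 TPM in KO, against 259 TPM in WT. Pycr1, Psph and Ppp1r15b were picked here after their values were seen. Ladder and long-read libraries are separate samples in the labels, and Ddx3y differs in opposite directions between them, so genotype and sample origin cannot be told apart in this contrast of assays.

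The ends of the assembled models are given as assembled, and whether they are true transcript ends was not tested. The Asns-201, Phgdh-201 and Psat1-201 intron chains were assembled in all 4 assemblies. The assembled Psat1 ended at 15905126 in 3 of them and at 15905072 in the KO cDNA one, next to the annotated end of Psat1-205 (15905127), while it began near the start of Psat1-201. Assembled Stc2 ended between 31357890 and 31357896, short of the annotated 31357307. Assembled Atf4 began at 80255497 to 80255505 in the KO assemblies and the native WT one, inside the first annotated exon, whose start is 80255184. The Atf5-202 chain was assembled in KO cDNA alone, at 0.624 TPM beside 0.798 TPM for Atf5-201, while WT cDNA held Atf5-201 at 11.8 TPM and no Atf5-202.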

How the data were processed

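The 11 short-read files hold estimated counts and TPM per transcript as the authors deposited them; the submitters' processing notes name kallisto, STAR 2.5.4b, StringTie and the GRCm38 build. The ladder files also hold 11338 assembled targets without annotation (11.9% to 13.4% of estimated counts), kept in library sizes. Long-read TPM are from the deposited StringTie 2.0 assemblies, per the file headers; the notes name minimap2 2.17. Estimated counts were summed per gene, rounded, filtered (filterByExpr), scaled by TMM and tested with edgeR 4.0.16; transcripts likewise. CPM used these scaled library sizes. Alternatives used DESeq2 1.42.0 and limma 3.58.1, the latter on log2(TPM + 0.1 or 1). Long-read genes were summed over models sharing an annotated intron. Fits were tested on simulated data. Estimated counts split reads among similar transcripts, so precision goes beyond counting error. FLAIR assemblies were not used.

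The 10 genes and all lists were chosen with earlier results of these data known. Named were all 10 genes; per list up to 2 rises and 2 falls past 0.05 whose average log2 CPM reached 1; transcripts of 10% or more of a gene; and the 5 genes nearest Atf4. Matching replicate numbers did not pair the samples.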

Additional observations from a re-analysis of the deposited data

Results flagged for a closer look

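Of 40 groups of 4 ladder libraries examined for a library far from the rest, 2 stood out, and chance flags about 1 in 20 groups. Sesn2 in the WT ladder libraries had 1 low value: WT replicate 2 at 53.8 CPM, against 106, 112 and 110.4 CPM in the others, a gap of 0.895 of the group's range. Trib3 in the KO ladder libraries had 1 high value: KO replicate 3 at 4.06 CPM, against 3.59, 3.59 and 3.67 CPM in the others, a gap of 0.831 of the range.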

How the results depend on the processing

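Among the 10 genes, KO over WT, 5 or 6 were called under every alternative that kept all libraries, and 4 to 8 when leaving out 1 library (8 without WT replicate 2). Chac1, Phgdh, Stc2 and Ddit3 kept their calls and directions under all 15. All genes called ran from 9005 to 9960 when leaving out 1 library, other pathway genes from 52 to 64, and member transcripts from 7 to 8. Genes with changed usage ran from 0 to 1 and transcript shares that passed were 0. With the replicate number as a block, which the data did not bear out as a pairing (correlations of same-numbered KO and WT libraries from -0.077 to 0.090, and not every library closest to its own number), 9949 genes, 5 of the 10 and 63 pathway genes were called, Atf4 at an adjusted p of 0.082 by edgeR; ladder over standard, 4 of the 10 were called with the block. Ladder over standard calls ran from 4 to 8 when leaving out 1 library.

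With TPM, ladder over standard, 6 genes reversed: Atf4 (-1.25), Atf5 (-0.011), Chac1 (-1.21), Phgdh (-0.77), Sesn2 (-1.06) and Trib3 (-1.09); the median of all genes moved by -1.60 under that scale, and without a filter by 0.11. Without standard replicate 1 Chac1 was at -0.22, within a range of -0.22 to 0.65 when leaving out 1 library. Asns-201, KO over WT, near 0 and never called, turned positive with DESeq2 size factors (0.044) and without a filter (0.036), and ranged from -0.047 to 0.030 when leaving out 1 library. Its share difference ranged from -0.14 to 0.16 points, and that of Phgdh-201 from -0.0064 to 0.0099 points. As a share of TPM, Atf4-201 (-0.12 points) and Stc2-201 (-8.81 points) reversed, and Atf4-201 was 0 with shared targets. Atf4 in cDNA reversed on 1 exon (-0.77), an alternative chosen after seeing the data. By the same measure Stc2 in native RNA reversed too, from -0.03 by gene sum to 0.81. Causes were not tested. Chac1 and Trib3 stood at 1.23 to 7.08 CPM in the standard libraries, and the part of depth in their spread was not tested.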
